A study of Drosophila melanogaster with 24 samples.

Results

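Young adult heads of Drosophila melanogaster that lacked H3.3A were compared between the sexes by RNA-seq. The comparison held 6 of the 24 libraries of the series, chosen by their labels: 3 of young female and 3 of young male H3.3Adelta heads, the genotype that the study calls H3.3Anull. Both sexes carried the null allele H3.3A 2x1 over the deficiency Df(2L)Bsc110 and a wild-type H3.3B gene on the X chromosome, so the absence of H3.3A was shared by females and males and there was no library with H3.3A intact. Young flies were 0 to 2 days past eclosion. For a side-by-side view, the same sex contrast was taken in 6 libraries of old H3.3Adelta heads, 21 to 25 days past eclosion, and in 5 libraries of young H3.3BK36R heads. The latter lack H3.3A in the same way and carry, in place of wild-type H3.3B, an H3.3B gene in which lysine 36 is replaced by arginine. Each library was made from whole heads of 10 to 25 pooled flies and from RNA depleted of ribosomal RNA. The study calls each library a biological replicate. The labels number the 3 libraries of a group without saying whether they come from separate crosses or days. The p-values of single genes rest on a spread between replicate libraries estimated over all 8 groups of the series. That spread may in part be technical.

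In Drosophila, sex is set by the number of X chromosomes. In females the splicing factor Sex-lethal (Sxl) is made, directs female splicing of transformer (tra) and blocks translation of msl-2, and tra in turn sets the female forms of doublesex (dsx) and fruitless (fru). In males msl-2 is translated and assembles, with the noncoding RNAs roX1 and roX2, the complex that raises transcription of the single X. The fat body of the head, a tissue under the cuticle with functions of liver and adipose tissue, is known for strong sex differences: it makes yolk proteins in females, under control of dsx, and a separate set of secreted proteins and enzymes in males.

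The values are normalized counts, that is, read counts on a gene divided by a size factor of the library. In the 3 female libraries between 28207240 and 39895896 reads were counted on genes, and in the 3 male libraries between 28485093 and 37358270. The mitochondrial share was 3.08% to 4.07% in females and 3.10% to 3.72% in males. One of the 6 libraries stood apart: in young male replicate 2, 77.5% of 2310 otherwise silent autosomal genes had at least 1 read, against 20.3% to 29.2% in the 3 female libraries and 25.5% and 28.2% in the other male ones. Among the libraries used for the side-by-side view, this share was also high in some. It was 84.1% in old female H3.3Adelta replicate 2, 81.5% in young female H3.3BK36R replicate 2 and 60.3% in young male H3.3BK36R replicate 3. The other libraries of these groups lay between 24.8% and 45.4%. Yolk protein RNA was found in 2 male libraries of the side-by-side view. Yp1 had 253929.7 normalized counts in old male H3.3Adelta replicate 3 and 56504 in young male H3.3BK36R replicate 3, and no other male of these groups exceeded 5490.4.

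His3.3A (FBgn0014857, arm 2L, 5055058 to 5056149 on dm6) had 369, 389.9 and 346 normalized counts in females, against 403, 368 and 308 in males. Reads were thus counted on the mutant locus in both sexes, and the groups overlapped. The source of these reads was not tested. His3.3B, the remaining H3.3 gene (X, 9152523 to 9156669), had 26230.0, 24717 and 23085 in females, against 23036, 22496 and 21389 in males. The log2 fold change of His3.3B, here and throughout female minus male on the log2(normalized count + 1) scale, was 0.14 ± 0.10 (SE), and it did not pass the test (limma, Benjamini-Hochberg adjusted p = 0.564). For His3.3A the log2 fold change was 0.04 ± 0.15 (limma, adjusted p = 0.94).

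The RNAs that mark sex separated the 2 groups of libraries. The yolk protein genes, which encode proteins taken up by the egg, were the most different. Yp1 (X, 10053811 to 10055498) had 860331, 1002587 and 982141 normalized counts in females, against 990.5, 1199 and 1282 in males, a log2 fold change of 9.68 ± 1.33 (limma, adjusted p = 3.70e-04). Every female library was far above every male library. Yp2 (log2 fold change 9.72 ± 1.32) and Yp3 (8.54 ± 1.24) did the same, and the 3 genes together took 6.54%, 6.98% and 7.16% of all counts in females, against 0.0111% to 0.0134% in males. The standard errors of the Yp genes come from a spread shared by all 8 groups of the series, which include the male libraries with yolk protein RNA given above. The fat body gene fit (3R, 21883924 to 21884454), which encodes a secreted peptide, had 1540.3, 1117 and 1251 in females, against 19.7, 43.3 and 10.8 in males, and was 58.4-fold higher in females (log2 fold change 5.87 ± 0.84, limma adjusted p = 4.61e-04).

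Of the noncoding RNAs of dosage compensation, roX2 (X, 11579065 to 11580432) had 94.8, 2.58 and 3.39 normalized counts in females, against 2605, 2324 and 2296 in males (log2 fold change −7.71 ± 0.90, limma adjusted p = 1.19e-04). Its partner roX1 (X, 3857230 to 3862697) had 2919.8, 259 and 189 in females, against 57035, 60933 and 50086 in males (log2 fold change −6.74 ± 0.81, limma adjusted p = 1.59e-04). The sexes did not overlap for either RNA, but female replicate 1 stood above the other females, at 5.21% of the male mean for roX1 and 3.93% for roX2. Of the male-higher fat body genes described below, Cyp4d21 was at 10.8%, 7.83% and 7.55% of the male mean in the 3 females, highest in replicate 1, and sxe2 at 16.4%, 20.2% and 20.5%, lowest in replicate 1. Without female replicate 1 the log2 fold changes were −7.98 for roX1 and −9.25 for roX2, and whether male heads were mixed into that library was not tested.

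The other sex-determination genes moved less. The protein-coding gene msl-2 (2L) had 933, 1011 and 1035 normalized counts in females, against 1499, 1562 and 1593 in males, and was 1.56-fold higher in males (log2 fold change −0.64 ± 0.09, limma adjusted p = 3.18e-04). Sxl (X) was 1.57-fold higher in females and tra (3L) 1.66-fold higher, with limma adjusted p of 0.021 and 3.70e-04, and in neither did the sexes overlap. The 2 downstream switches, dsx and fru, act through sex-specific splicing, which gene counts do not show. Their log2 fold changes were −0.49 ± 0.30 for dsx, whose libraries overlapped between the sexes, and 0.36 ± 0.12 for fru (limma adjusted p = 0.492 and 0.132). The other members of both lists, among them mle, mof, msl-1, msl-3, Clamp, tra2, vir and fl(2)d, lay between −0.13 and 0.19 and did not pass the test. In all, 3 of 8 tested dosage compensation genes were higher in males, beside 1.05% of all tested genes, and none in females. Of 11 sex-determination genes 2 were higher in females, beside 2.73% of all tested genes, and none in males. These lists were chosen for their known link to sex, and Sxl kept its call without female replicate 1 but lost it without any other 1 of the 6 libraries.

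**Figure D1:**
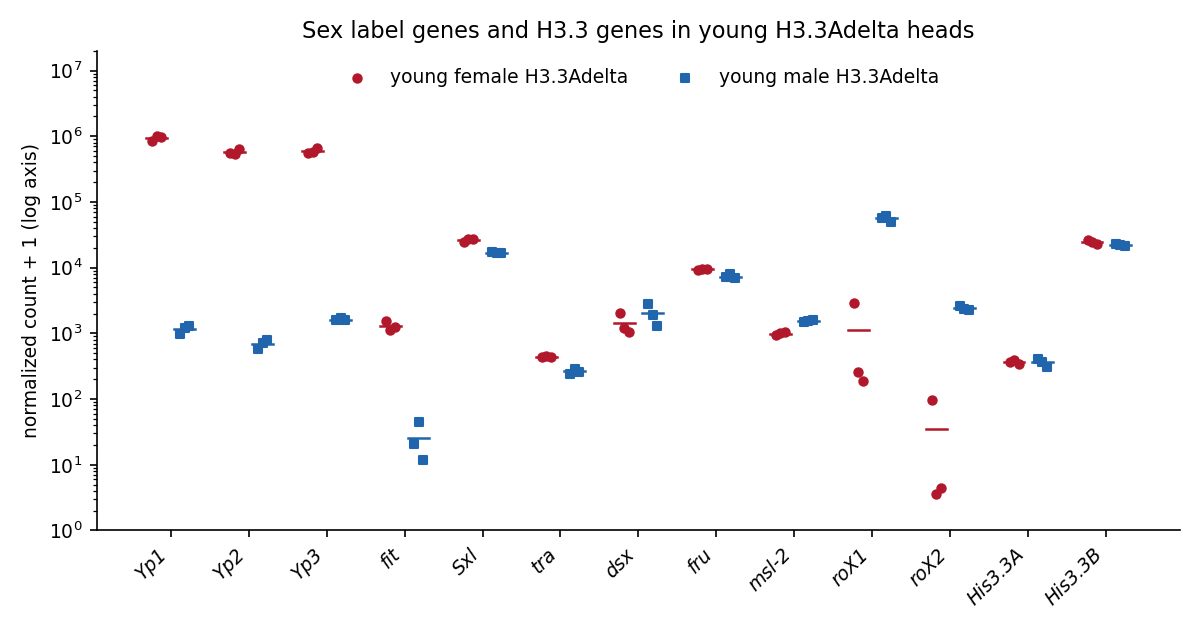
Normalized count + 1 (log axis) of sex-marking genes and of the H3.3 genes in each of the 6 young H3.3Adelta libraries, with females as red circles to the left of males as blue squares and a bar at the mean of 3 libraries. The yolk protein genes lie higher in females by the largest factor and roX1 and roX2 higher in males, with female replicate 1 the highest female point for both roX RNAs, while the H3.3 genes lie at like levels in both sexes.

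Across the transcriptome, 12493 genes had at least 10 normalized counts in at least 3 of the 23 libraries used and were tested. At an adjusted p below 0.05, 472 genes (3.78% of those tested) differed between young female and young male H3.3Adelta heads, 341 higher in females (2.73%) and 131 higher in males (1.05%). Most differences were small. The size of the change, taken without its sign, had a median of 0.74 on the log2 scale, and 132 genes (1.06%) differed by more than 2-fold, 89 of them higher in females and 43 in males. Counts of female and male libraries did not overlap for 467 of the 472, and for 3149 of all 12493 tested genes (25.2%). At an unadjusted p below 0.05 there were 1883 genes. The last genes inside the threshold were eIF3k (log2 fold change 0.39, limma adjusted p = 0.0498) and CG8298 (−0.34, 0.0497), and the first outside it were Gcna (−1.21, 0.0501) and CG11961 (0.42, 0.0501). The count depended on single libraries: leaving out one of the 6 at a time gave between 236 genes, without female replicate 2, and 398, without female replicate 1, with 310 without male replicate 2 and 297 without male replicate 3. Without young male H3.3BK36R replicate 3, which enters the shared spread, there were 720. Among the genes named, Sxl, Cyp4d1, Obp56e, Obp18a, Obp44a, hll, atk, CG4757, GstE2, ChAT, Eip78C, Cyp6t3, Cyp305a1 and asRNA:CR45479 each lost the call without any 1 of several libraries. Those that lost it without female replicate 2 were CG34227, CG10184 and asRNA:CR46195, while asRNA:CR45046 lost it without female replicate 1 or male replicate 3 and Cyp4d2 without male replicate 2.

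Beyond the yolk protein genes and fit, the largest female-higher changes among genes with a mean of at least 100 normalized counts in the higher sex included an odorant-binding protein. Obp99a (3R) had 1148, 1652 and 1606 normalized counts in females, against 10.6, 12.2 and 18.0 in males, a log2 fold change of 6.66 ± 0.96 (limma, adjusted p = 4.63e-04). Every female library stood far above every male one, and the fold was 101. Odorant-binding proteins are small secreted carriers of hydrophobic molecules, known best from the antenna and also made in other tissues.

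Further large female-higher changes were in single genes of unlike function. The class I myosin gene Myo61F (3L) had 368, 465 and 400.1 normalized counts in females, against 31.9, 49.9 and 87.4 in males (log2 fold change 2.95 ± 0.29, limma adjusted p = 9.55e-06). The gene rost (2L), which encodes a membrane protein known from myoblast fusion in embryos, had 1220.4, 1515 and 1301 in females, against 255, 194 and 215 in males (2.60 ± 0.25, limma adjusted p = 9.55e-06). These 2 genes had the smallest adjusted p of all female-higher genes, and Myo61F overlaps 2 genes on the opposite strand. Ndg, which encodes nidogen, a component of basement membranes, had 1092, 1389.7 and 1335 in females, against 199.8, 152 and 343 in males. Acox57D-d, an acyl-CoA oxidase of peroxisomal fatty acid breakdown, was 4.58-fold higher in females, hll 5.63-fold and CG4259 3.96-fold. For none of the 4 did the sexes overlap, which the rule for naming them required. The values of hll were the most scattered, with 301, 653 and 445 in females, against 38.7, 85.7 and 142 in males.

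Among the 15 largest female-higher changes were 3 antisense RNAs that overlap other genes. The name of the deposited table points to counting on the forward strand, while the methods do not state the setting, and how fully the reads of overlapping genes were separated was not tested. asRNA:CR45601 (X, 10054235 to 10055109) lies within Yp1 on the opposite strand. It had 803, 754 and 862 normalized counts in females, against 2.28, 1.88 and 6.30 in males, and its counts were 0.0752% to 0.0934% of those of Yp1 in females and 0.157% to 0.492% in males. asRNA:CR45046 (3R, 21878672 to 21884101) overlaps fit on the same strand, and had 424, 86.7 and 84.8 in females, against 8.36, 14.1 and 4.50 in males. The third, asRNA:CR46195 (X), was 3.51-fold higher in females and overlaps 1 gene on the opposite strand. Of all 472 genes that differed, 189 overlap a gene on the opposite strand, as do 5361 of the 12493 tested.

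On the male side the smallest adjusted p of all genes belonged to 2 fat body genes named for their sex-specific expression. Cyp4d21, a cytochrome P450 also known as sex-specific enzyme 1 (2L, 7605600 to 7607701), had 155, 113 and 108 normalized counts in females, against 1796, 1623 and 893 in males (log2 fold change −3.47 ± 0.30, limma adjusted p = 2.38e-06). The lipase-like gene sxe2 (3R, 16083878 to 16087222) had 442, 544 and 553 in females, against 2747, 3203 and 2131 in males (−2.38 ± 0.20, limma adjusted p = 2.38e-06). In both genes the lowest male library, replicate 3, was still several times above the highest female one. Obp99b, the third gene on the list of male head fat body genes, had 33.4, 41.2 and 48.6 in females, against 1075, 938 and 514 in males. Its groups did not overlap and its log2 fold change was −4.27, but with a standard error of 1.27 it did not pass the test (limma, adjusted p = 0.0696). The last, takeout (to), which encodes a carrier protein described as male-enriched in the head, had a log2 fold change of 0.97 ± 0.30 toward females, with 669, 788 and 769.6 in females, against 307, 454 and 385 in males, and did not pass the test either (limma, adjusted p = 0.078).

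Other male-higher genes were mostly known by number alone. CG34227 had 1335, 1041 and 1397 normalized counts in females, against 4761, 6672 and 5142 in males, and was 4.38-fold higher in males (limma, adjusted p = 0.0084). CG4757 had 385, 422 and 411 in females, against 896, 2779.7 and 1448 in males. Its males were spread over more than 3-fold, and the fold of 3.77 passed the test narrowly (limma, adjusted p = 0.037). The enzyme gene Ugt37B1, of the UDP-glycosyltransferases that conjugate small molecules, had 1.52, 6.87 and 0 in females, against 74.4, 116 and 27.9 in males (log2 fold change −4.55 ± 0.73, limma adjusted p = 9.49e-04). It was almost without reads in females. Differences of 2.21- to 3.71-fold toward males were found in atk, which encodes a leucine-rich repeat protein of the extracellular matrix, CG32706, CG18302, lncRNA:CR32553, CG2124, CG10184, asRNA:CR45479 and CG18467, all with limma adjusted p between 2.88e-04 and 0.044. Of these, atk, CG2124, asRNA:CR45479 and CG18467 overlap at least 1 gene on the opposite strand.

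**Figure D2:**
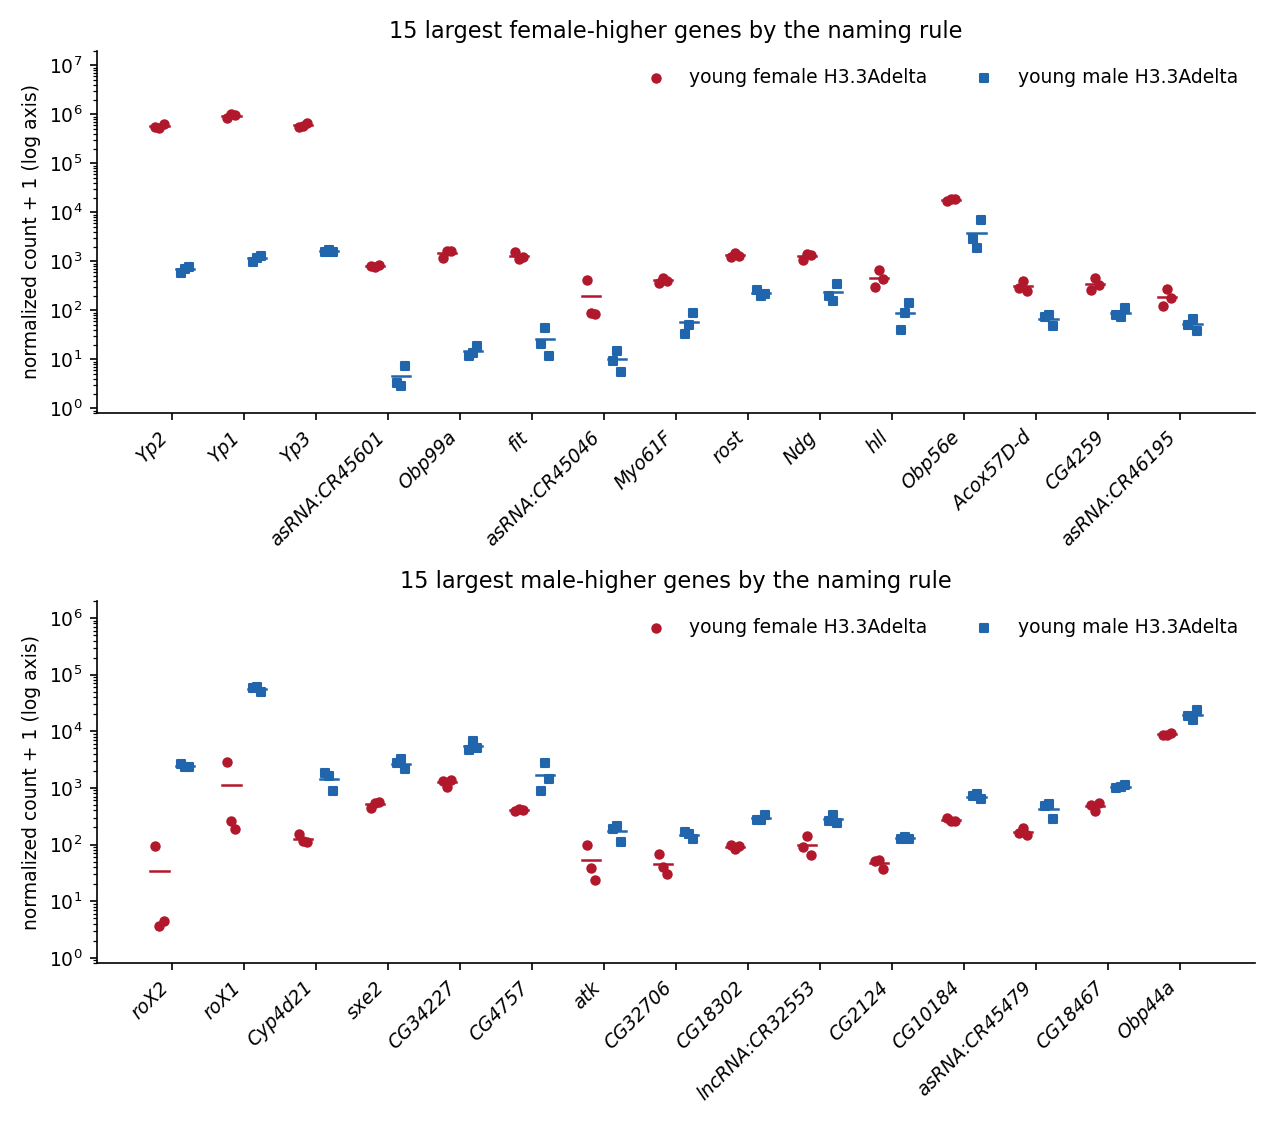
Normalized count + 1 (log axis) in each of the 6 young H3.3Adelta libraries for the 15 largest female-higher genes (top) and the 15 largest male-higher genes (bottom) among those with a mean of at least 100 normalized counts in the higher sex and no overlap between the sexes, with females as red circles to the left of males as blue squares and bars at group means. The 3 yolk protein genes lie highest of all in females, with 530922 normalized counts or more, while their male libraries lie at 1691 or less.

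The broadest change was in the genes of the cytoplasmic ribosome. Ribosomal proteins are encoded by genes on all major chromosome arms, and their transcripts are among the most abundant of a cell. Of 92 genes with such symbols in the table, 84 were tested, and 76 of them were higher in females, against a background of 2.73%, and none in males. Their median log2 fold change was 0.77, beside −0.05 over all tested genes. The summed level of the 92 genes was 1038366, 1251680.0 and 1106782 normalized counts in females, against 681009, 637075.0 and 679466 in males, 1.70-fold higher in females. All 3 female sums lay above all 3 male sums, and an exact two-sided permutation test over the 6 libraries gave p = 0.1, the smallest that 3 against 3 allow.

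Single ribosomal protein genes were alike in size of change. For the 76 that differed, the fold ran from 1.36 to 2.05, and in every one the 3 female libraries lay above the 3 male ones. Such a lack of overlap was nearly fixed by the choice, since 98.9% of all genes past the test had it. Of all 84 tested ribosomal protein genes 80 had no overlap between the sexes, beside 25.2% of all tested genes. RpS20 had 12629.9, 16906 and 13813 normalized counts in females, against 7315, 6821 and 7200.2 in males (log2 fold change 1.01 ± 0.14, limma adjusted p = 3.70e-04). The smallest adjusted p was that of RpS27 (0.89 ± 0.12, limma adjusted p = 3.13e-04). RpS2 (0.96 ± 0.13) and RpS9 (0.88 ± 0.12) tied with RpS20, and RpL10 (0.87 ± 0.13) and RpL11 (0.85 ± 0.12) came after them. In all 6 genes female replicate 2 was the highest library. Of the 76 genes, 12 are X-linked, out of 14 X-linked ones tested.

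The 8 tested genes that did not pass were RpL36, RpLP0, RpS14b, RpL37A and RpS16, with log2 fold changes of 0.30 to 0.79, and the divergent copies RpL24-like, RpS15Ab and RpS5b. RpL24-like, whose protein acts in assembling the ribosome rather than in its finished form, had 2238, 2138 and 2059 normalized counts in females, against 1838, 1853 and 1655 in males (log2 fold change 0.27 ± 0.11, limma adjusted p = 0.199). RpS5b, the copy known from the ovary, had under 7 normalized counts in every library. The reads of near-identical copies such as RpS14a and RpS14b may have been split between them or dropped. The number of female-higher ribosomal protein genes was between 67, without female replicate 2, and 75, without female replicate 1, when 1 library was left out, and 66 without both male replicate 2 and female replicate 1.

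Other parts of the translation machinery were examined after these values were seen. Of 48 tested translation factors with eEF or eIF symbols, 16 were higher in females, beside 2.73% of all tested genes, and none in males, with a median log2 fold change of 0.21. The elongation factor gene eEF1alpha1 had 138408, 187292 and 139339 normalized counts in females, against 75803, 79146 and 66542 in males (log2 fold change 1.06 ± 0.19, limma adjusted p = 0.002). Its partner eEF1gamma rose by 0.97 ± 0.13. Of 14 tested eIF3 subunit genes, 8 were higher in females, by a median of 0.38 over all 14. Of 125 tested snoRNAs, the small RNAs that guide modification of ribosomal RNA and mostly lie in introns of host genes, 13 were higher in females, against the same 2.73%, and none in males, with a median of 0.46. Of the mitochondrial ribosome, none of 72 tested mRpL and mRpS genes passed the test in either direction, and their median was −0.02.

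**Figure D3:**
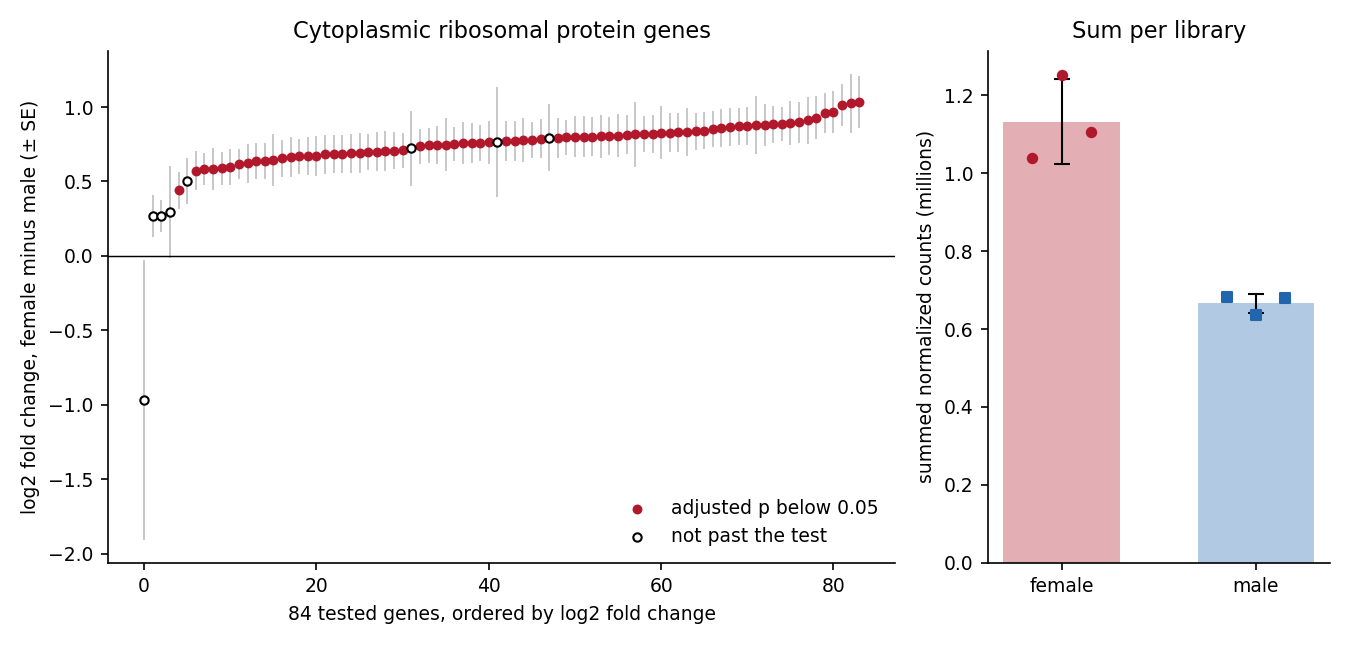
Left, log2 fold change (female minus male, ± SE) of the 84 tested cytoplasmic ribosomal protein genes in young H3.3Adelta heads, ordered by size, with filled red points for the 76 genes past the test and open points for the others. Right, summed normalized counts of the ribosomal protein genes per library, in females and males, with bars at the mean of 3 libraries and error bars of 1 SD: the 3 female libraries lie between 1038366 and 1251680.0 and the 3 male libraries between 637075.0 and 681009.

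Marker genes for tissues of the head were summed for comparison with the ribosomal protein genes. In whole heads fewer cells of a type and less RNA per cell cannot be told apart. Of the adult fat body markers, 1 of 6 was higher in females, where 2.73% of all tested genes were, and none in males. Their summed level was 393700.3 to 586760.1 normalized counts in females, against 269118 to 311306 in males, 1.63-fold higher in females. The single marker past the test was Ilp6, the insulin-like peptide of the fat body, with 2483, 2424 and 2786 in females, against 1673, 1297 and 1479 in males (log2 fold change 0.79 ± 0.16, limma adjusted p = 0.0069). FASN1, apolpp and Mtp had log2 fold changes of 0.56 to 0.73 that did not pass it, and Gnmt had −1.22. Neuronal markers summed to 258434 to 284046 in females, against 298906 to 318787 in males, and glial markers to 67346.7 to 79172.9 in females, against 89148.0 to 106779 in males. Their medians were −0.22 over 11 neuronal and −0.38 over 7 glial genes, with 1 gene of each list higher in males, where 1.05% of all tested genes were, and none in females. These were ChAT, which makes acetylcholine (log2 fold change −0.43 ± 0.11, limma adjusted p = 0.025), and wrapper, a surface protein of glia (−0.49 ± 0.10, 0.0054). Exact permutation tests of the fat body, neuronal and glial sums each gave p = 0.1. The part of tissue makeup in the ribosomal protein difference was not tested.

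Markers of the eye and of tissues outside the head bore on the preparation. None of 16 photoreceptor genes passed the test, their median was 0.06, and their sum was 1058546 to 1192374 normalized counts in females, against 952653 to 1129866 in males. Markers of the male reproductive tract summed to 381 to 489.7 over 38 genes in females, against 349 to 1132 in males, where 1132 was male replicate 2. Those of the female tract summed to 133 to 196 over 25 genes in females, against 137 to 273 in males, and those of the gut to 54.1 to 178 over 15 genes in females, against 64.8 to 546 in males. No member of these 3 lists passed the test. The highest male sum came from replicate 2 in each of them, the library with reads on most silent genes. Markers of thoracic flight muscle summed to 99699 to 169281 over 7 genes in females, against 69112 to 116691 in males. An exact permutation test of that sum gave p = 0.2. None of these markers passed the test, and their median was −0.27.

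Genes of fat storage and of hormone signalling were examined as further lists. Of 15 lipid synthesis and storage genes, 14 had a positive log2 fold change, as had 41.6% of all tested genes, and 1 passed the test toward females, as did 2.73% of all tested genes. The median over the list was 0.28. That gene was Lsd-2, the perilipin that coats lipid droplets (X), with 26334, 34303 and 29949 normalized counts in females, against 15306, 17956 and 16424 in males (log2 fold change 0.86 ± 0.15, limma adjusted p = 0.0014). Apoltp, which encodes the lipid transfer particle of the blood and was named after its values were seen, had 18717, 28769.6 and 18436 in females, against 10101, 10553 and 10296 in males (1.06 ± 0.16, limma adjusted p = 5.60e-04). In the ecdysone list, Cyp18a1, the enzyme that inactivates the moulting hormone, had 1402, 1258 and 1414 in females, against 552, 433 and 398 in males (1.57 ± 0.21, limma adjusted p = 3.18e-04), and the nuclear receptor Eip78C was higher in males (−0.45 ± 0.11, limma adjusted p = 0.027). Of 9 juvenile hormone genes only the receptor gce passed the test (0.50 ± 0.08, limma adjusted p = 0.001), and of 11 genes of insulin and adipokinetic hormone signalling only Ilp6, above. Single calls in lists of this size were read as values of those genes and not of the list.

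The gene families of odour binding and detoxification are read against the shares of all tested genes, 2.73% higher in females and 1.05% in males. Of 29 tested odorant-binding proteins, 4 were higher in females and 1 in males. Besides Obp99a these were Obp56e, with 17312, 18489.8 and 18988 normalized counts in females, against 2840.0, 1860.0 and 6946 in males (log2 fold change 2.46 ± 0.58, limma adjusted p = 0.018), Obp56d (1.11 ± 0.18) and Obp18a (0.64 ± 0.15). Obp44a was the one higher in males, with 8646, 8506 and 9282 in females, against 18659, 16026 and 23919 in males (−1.13 ± 0.29, limma adjusted p = 0.034). The median over the family was 0.01. Of 82 tested cytochrome P450 genes, 3 were higher in females (Cyp18a1, Cyp4d1 and Cyp6t3) and 4 in males, with the female-higher share near that of all genes. Cyp4d1, named after its values were seen, lost the call without any 1 of the 6 libraries. Cyp313a1, with 3408, 2774 and 3152 in females, against 7112, 5380.5 and 4851 in males, and Cyp4d2 and Cyp305a1, with log2 fold changes of −0.58 and −0.69, joined Cyp4d21 on the male side. Of 30 UDP-glycosyltransferases Ugt49C1 was higher in females (0.81 ± 0.16) and Ugt37B1 in males, and of 34 glutathione transferases GstE2 was higher in males (−0.45 ± 0.11). For these last families 1 gene in a direction is close to what the shares of all tested genes give.

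Several lists held no gene past the test in either direction. These were the antimicrobial peptides (27 tested, median −0.19), Toll and Imd signalling (20, 0.06), Turandot and JAK-STAT (11, 0.01), larval serum and larval fat body proteins (6, −0.87), sugar digestion (12, −0.59), heat shock proteins (14, 0.22), the circadian clock (10, −0.01), pheromone synthesis and reception (9, −0.22), cuticular proteins (46, −0.33), chemoreceptors (70, −0.43), flight muscle markers (7, −0.27), H3.3 and its chaperones (7, 0.02) and the enzymes of H3 lysine 36 methylation (6, −0.02). In the Turandot list, 4 of 11 tested genes had no overlap between the sexes, beside 25.2% of all tested genes. Of these, 3 stress-induced genes of secreted proteins are named after their values were seen. TotM had 653, 851 and 311 normalized counts in females, against 26.6, 22.6 and 41.4 in males (log2 fold change 4.21 ± 1.18, limma adjusted p = 0.052), and TotC had 851, 2139 and 1701 in females, against 239, 245 and 233 in males (2.60 ± 0.81, limma adjusted p = 0.087). TotA had 2996, 7759.9 and 2617 in females, against 1709, 1520.2 and 875 in males (1.58 ± 0.84, limma adjusted p = 0.396). The female libraries lay above the male ones in all 3, and the differences did not pass the test. All 12 sugar digestion genes had a negative log2 fold change, between −1.34 and −0.04. Outside these lists, some genes known from blood cells were picked out because they passed the test toward females, among them Hml, NimC1, PPO1, PPO2 and srp, which says nothing of blood cell genes as a group. Of these, srp kept the call without any 1 library, and the others lost it without female replicate 2 or male replicate 3. Hml, a clotting protein of hemocytes, had 4412, 6948 and 5054 normalized counts in females, against 3144, 3739.8 and 2554 in males.

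**Figure D4:**
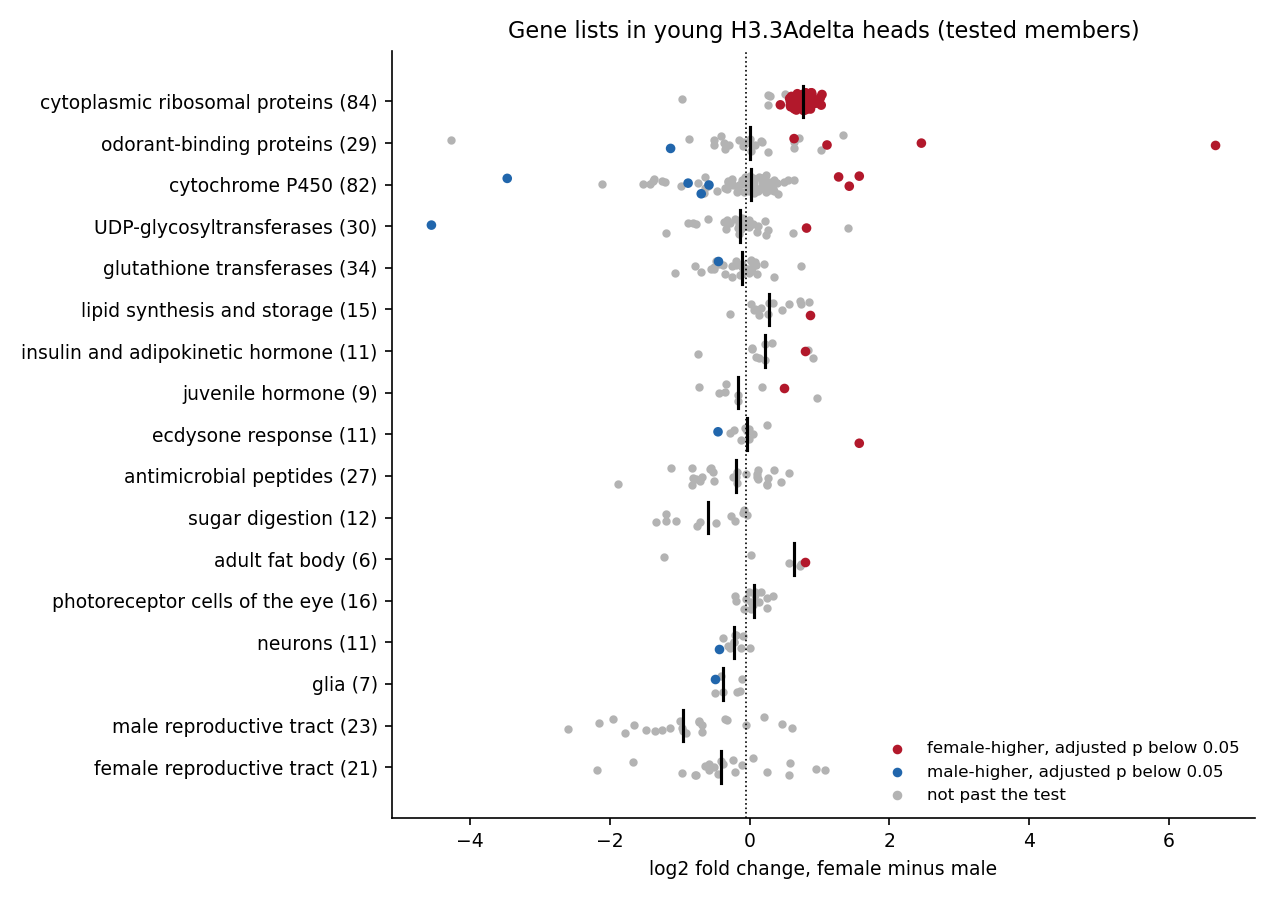
Log2 fold change (female minus male) of every tested member of 17 gene lists in young H3.3Adelta heads, with the number of tested members in parentheses, red points for members higher in females at an adjusted p below 0.05, blue for those higher in males and grey for the rest. A black bar marks the median of each list and the dotted line the median of all tested genes, −0.05: the ribosomal protein genes form a tight group near 0.77, and most other lists lie about the dotted line.

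The X chromosome, present in 2 copies in females and 1 in males, was compared with the autosomes. Of 2011 tested X-linked genes, 155 passed the test (7.71%), 103 toward females and 52 toward males. Of 10373 autosomal genes, 313 passed (3.02%), 237 toward females and 76 toward males. The X thus held 30.2% of the female-higher and 39.7% of the male-higher genes. The median log2 fold change was 0.00 on the X and −0.06 on the autosomes. In these data 22.5%, 22.7% and 22.9% of all counts fell on X-linked genes in females, against 17.1%, 17.1% and 17.2% in males. Yp1, Yp2 and Yp3 lie on the X. With them left out the shares were 17.1%, 16.9% and 17.0% in females, against 17.1%, 17.0% and 17.2% in males, and an exact permutation test gave p = 0.3 (p = 0.1 with them, the smallest possible).

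**Figure D5:**
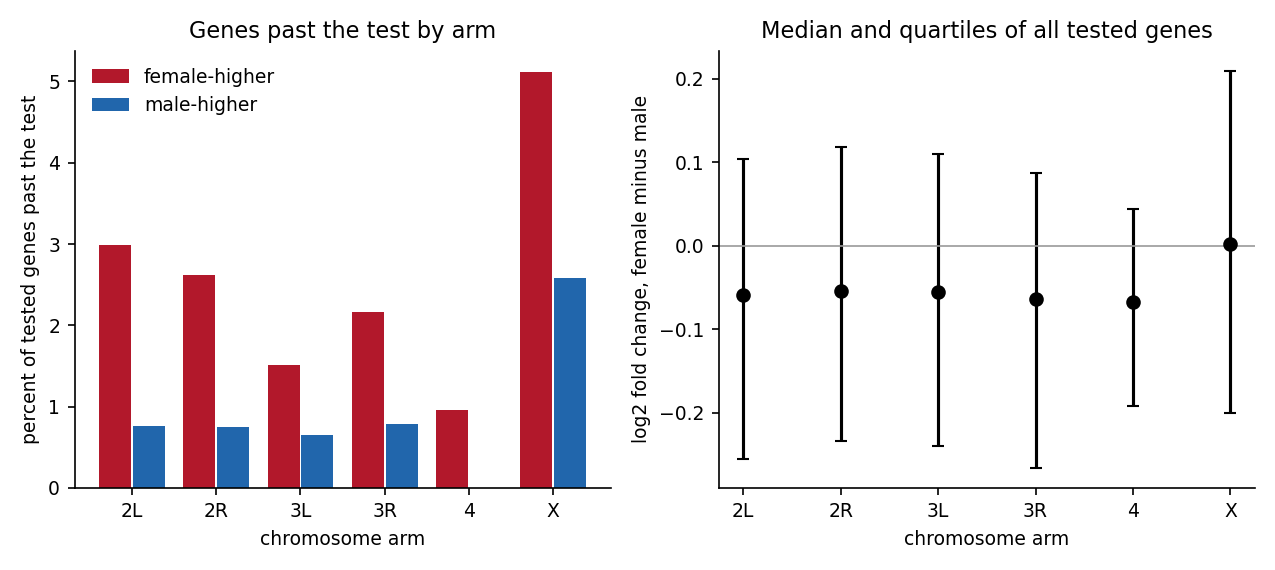
Left, percent of tested genes on each chromosome arm that were higher in females (red) or in males (blue) in young H3.3Adelta heads, with bars that start at 0. Right, median log2 fold change (female minus male) of all tested genes on each arm, with whiskers at the quartiles: of the 6 arms plotted, the X holds the largest percent in both directions, 5.12% and 2.59%, while its median is near 0.

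Several X-linked genes known from cell division or the germline were higher in males at low counts. The 7 described were picked out because they passed the test, so their common direction is set by the choice and is no result about such genes as a class. Ndc80, a protein of the kinetochore, had 0.758, 1.72 and 1.13 normalized counts in females, against 9.11, 16.9 and 13.5 in males (log2 fold change −2.67 ± 0.48, limma adjusted p = 0.0022). Klp3A, a kinesin of the spindle, had 32.6, 23.2 and 18.1 in females, against 64.6, 65.9 and 69.3 in males (−1.44 ± 0.31, limma adjusted p = 0.0092), and Mcm3, a subunit of the replicative helicase, had 21.2, 9.45 and 15.8 in females, against 47.1, 50.8 and 60.3 in males (−1.76 ± 0.37, limma adjusted p = 0.007). In all 3 genes every male library stood above every female one. The bundling factor gene feo (−3.68 ± 0.75), mh, the germline gene fs(1)Yb and the chromokinesin gene nod also passed the test toward males. The summed level of the 7 genes was 146, 90.2 and 108 in females, against 357, 352 and 348 in males. Choosing genes past the test favours male libraries that agree, so this sum is no check of male replicate 2. Without female replicate 2 the call of feo and Mcm3 was lost, without female replicate 3 that of Klp3A, and without any 1 of the 6 libraries that of nod. The gene nod begins just past the end of roX2 on the same strand, and the part of roX2 reads in its count was not tested.

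Y-linked genes were nearly silent in these heads. Of 113 in the table, 13 were tested, and CR45780 was the one that passed, toward males, beside 1.05% of all tested genes. Its call was lost without any 1 of the 6 libraries. It had no read in the 3 female libraries together and 27 in the 3 male ones. Against a floor of 3 reads over the group it was at least 8.69-fold higher in males. Mst77Y-16Psi, a pseudogene on an unplaced scaffold, had 0 and 60 reads, at least 19.3-fold higher in males. All Y-linked genes together summed to at most 40.7 normalized counts in females, against 66.1, 291 and 109 in males, where 291 was male replicate 2.

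The same contrast in old H3.3Adelta heads and in young H3.3BK36R heads used libraries apart from the 6 above, within one fit that shares its estimate of the spread. In old H3.3Adelta heads 1507 genes passed the test (12.1%), 877 toward females (7.02%) and 630 toward males (5.04%), and in young H3.3BK36R heads 193 did (1.54%), 113 toward females (0.905%) and 80 toward males (0.64%). By more than 2-fold the shares were 2.49% in old H3.3Adelta and 0.656% in young H3.3BK36R heads. Of the 472 genes of young H3.3Adelta heads, 460 had the same sign in old heads (97.5%) and 367 passed the test there in the same direction (77.8%), which are 24.4% of the genes past the test in old heads. In young H3.3BK36R heads 456 had the same sign (96.6%) and 102 passed (21.6%), which are 52.8% of the genes past the test there. None passed the test in the opposite direction in either. In all 3 contrasts 85 genes passed in the same direction, 61 toward females and 24 toward males.

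The largest changes are given for the 3 contrasts side by side. For Yp1 they were 9.68 in young H3.3Adelta, 6.10 in old H3.3Adelta and 6.70 in young H3.3BK36R heads, and both of the last 2 contrasts hold a male library with the yolk protein RNA given above. For roX1 they were −6.74, −5.17 and −6.03, for Cyp4d21 −3.47, −3.11 and −2.96, for sxe2 −2.38, −3.12 and −2.67, and for rost 2.60, 2.54 and 2.34. Raised roX1 was also counted in females of the last 2 contrasts. It was 2905 and 3195 in old H3.3Adelta replicates 1 and 2, against 596 in replicate 3. In young H3.3BK36R females it was 2830 in replicate 3, against 354 and 420 in replicates 1 and 2. The gene hll had 2.49, 0.19 and 1.41, and CG4757 −1.92, 0.79 and −0.30, and neither passed the test outside young H3.3Adelta heads. The ribosomal protein genes had a median log2 fold change of 0.77 in young H3.3Adelta heads, with 0.88 in old H3.3Adelta and 0.37 in young H3.3BK36R heads. Of the 76 genes, all passed the test in old heads, and none did in young H3.3BK36R heads, where all 76 were positive. The young H3.3BK36R males were replicates 1 and 3, and replicate 3 is the one with yolk protein RNA. There RpS20 had 14377, 13399 and 12784 normalized counts in females, against 8300 in male replicate 1 and 11210 in male replicate 3. RpS27, RpS2, RpS9, RpL10 and RpL11 were also higher in male replicate 3 than in male replicate 1.

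Whether the sex difference itself differed was tested with interaction contrasts. No gene passed at an adjusted p below 0.05 between young and old H3.3Adelta heads (limma, 0% called, 720 genes at an unadjusted p below 0.05, smallest adjusted p 0.189), and none between young H3.3Adelta and young H3.3BK36R heads (0% called, 769 genes, 0.168). DESeq2 on recovered reads gave 16 and 7 genes, and edgeR gave none in either. For the ribosomal protein genes the difference between young H3.3Adelta and young H3.3BK36R heads had a median of 0.40. Of these genes, 36 had an unadjusted limma p below 0.05, and the smallest limma adjusted p was 0.781. The part of young male H3.3BK36R replicate 3, described above, in this difference was not tested. The genes with the smallest p between the ages were Nazo, Nepl11, Cpr72Ec, Phyhd1 and lncRNA:CR44230. Nazo had at most 6.87 normalized counts in young females, against at most 4.56 in young males, with log2 fold changes of 0.32 in young and 3.74 in old heads. Between the genotypes they were tyn, CG3097, asRNA:CR43471, dtr and CG9377. The cuticle gene tyn had 659, 630.4 and 728 in young H3.3Adelta females, against 1270.0, 1280.2 and 1328 in young H3.3Adelta males, with log2 fold changes of −0.94 there and 0.24 in young H3.3BK36R heads. In young H3.3BK36R heads tyn had 1075, 1076 and 1077 in females, against 1269 and 654 in males. The lower male value came from replicate 3, the library with yolk protein RNA. The gene tyn overlaps 14 genes on the opposite strand.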

How the data were processed

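RNA-seq libraries from whole heads were sequenced by the authors as 100 nt paired ends. Per the submitters' processing notes, STAR 2.7.7a, featureCounts of Subread 2.0.3 and DESeq2 1.34.0 were used on dm6. The name of the deposited table points to counting on the forward strand, which the methods do not state, and the annotation release is not given in the sources used here. The deposited values are a signal: gene counts that the authors divided by 1 DESeq2 size factor per library over 24 libraries (0.75 to 1.41). Whole reads were recovered from the steps of the values, 100% of them whole within 0.0001 of a read, and run through edgeR and DESeq2 as alternatives, which called 461 and 755 genes. Gene positions and symbols were matched for 17527 of 17606 genes.

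Young male H3.3BK36R replicate 2 was left out of the fit, as in the study, which leaves 23 libraries. Genes that reached 10 normalized counts in 3 or more of them were tested with limma 3.58.1 in R 4.3.3 on log2(normalized count + 1), with the prior variance following mean level, 1 mean per group over 8 groups, a two-sided moderated test and Benjamini-Hochberg adjustment over all 12493 genes. A fold change on this scale understates the change of low genes. Sums and shares were compared by exact two-sided permutation tests (scipy 1.17.1). edgeR 4.0.16, DESeq2 1.42.0, Python 3.11.15, numpy 2.4.6, pandas 2.3.3 and matplotlib 3.10.9 were also used. The fits were tested on simulated data.

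Named are the genes that check sex and genotype, the 15 largest changes in each direction among called genes without overlap and with a mean of at least 100 normalized counts in the higher sex, up to 6 called members of each gene list, and 5 genes per interaction contrast. Members and lists were chosen with earlier results of these data known. Reads carry no molecular identifiers and are not independent molecules, so the floor of 3 reads covers counting error only. Promoter sequences were not analysed here.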

Additional observations from a re-analysis of the deposited data

How the results depend on the processing

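The number of genes that differed between young female and young male H3.3Adelta heads was 472, and it was 413 to 514 under other pseudocounts, filters and scalings, none of which moved the median of all genes by over 0.1. It was 755 with DESeq2 and 461 with edgeR, and 64.8% of these genes in DESeq2 and 82.0% in edgeR were higher in females, beside 72.2%. With weights for single libraries it was 1111, with 199 genes over 2-fold, and the weights gave 2514 genes in old H3.3Adelta and 3 in young H3.3BK36R heads. Leaving out 1 library at a time gave 236 to 398 genes, with 236 without female replicate 2, 310 without male replicate 2 and 297 without male replicate 3, and 68 to 127 genes over 2-fold, with 68 without female replicate 2. Chosen after seeing the data, leaving out male replicate 2 and female replicate 1 together gave 308, and leaving out young male H3.3BK36R replicate 3 gave 720, with 145 over 2-fold. For young H3.3BK36R heads edgeR gave 107 genes and DESeq2 395. The interaction counts of 0 became 1 with a pseudocount of 5, 16 with DESeq2 and 4 with weights between ages, and 7 with DESeq2 and 2 without young male H3.3BK36R replicate 3 between genotypes. The cause of these shifts was not tested. In all, 166 genes (143 higher in females, 23 in males) passed the test in the same direction in the fit and all 23 alternatives.

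Among single genes, signs turned in Phyhd1, His3.3A and Cpr72Ec, which lie near 0. Leaving out 1 library at a time gave log2 fold changes of −0.021 to 0.31 for Phyhd1 (−0.021 without female replicate 1 and without male replicate 2), −0.067 to 0.13 for His3.3A (lowest without male replicate 3, and −0.0012 without female replicate 2) and −0.16 to 0.14 for Cpr72Ec (0.14 without female replicate 1, 0.11 without male replicate 3). Without male replicate 2 and female replicate 1 together Phyhd1 was at −0.19 and Cpr72Ec at 0.044, with edgeR Cpr72Ec was at 0.037, and with weights His3.3A was at −0.020. The difference of the X share, 5.61 percentage points, was −0.10 without Yp1, Yp2 and Yp3 and 0.067 when roX1 and roX2 were left out too. Over all single-gene values under alternatives, 1657 kept direction and side of the threshold, 96 lost the test, 28 gained it and 10 turned. Same-numbered female and male libraries correlated at 0.0748, 0.0182 and 0.113 in their deviations, and differently numbered ones at −0.17 to 0.096. Correlations this small do not settle whether the numbers pair the libraries. With the replicate number as a block, 552 genes passed.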
